A study of Mus musculus with 8 samples.

Results

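Immediate early genes are the genes that cells transcribe within minutes of a stimulus, before any new protein has to be made. A list of 38 mouse gene symbols of this class was followed in RNA sequencing of dorsal root ganglia, where the cell bodies of sensory neurons lie. Of the 38, 37 had a row among the 25780 genes counted in each of the 8 libraries, and Fosl1 was not analysed here. All 37 passed the filter on low counts that left 20235 genes for testing. The mice were either knockouts (iKO) with floxed alleles of G9a (the histone methyltransferase gene Ehmt2) and the tamoxifen-inducible Avil-iCreERT2, or littermate controls (WT) that lacked Cre. Each received complete Freund's adjuvant (CFA), which inflames the injected tissue, or vehicle in the left paw, and ganglia were taken 14 days later. The groups were iKO with CFA, iKO with vehicle, WT with CFA and WT with vehicle, with 2 libraries each. Avil is a gene of sensory neurons, so the deletion was directed to these cells, while the ganglion also holds glia, vessels, fibroblasts and immune cells. Whether WT mice carried floxed alleles, whether each library came from 1 animal, and the dose, age, sex and side of the ganglia were not stated.

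In neurons the genes are switched on by calcium entry and growth factors through ERK and other kinases, which act on promoter-bound factors such as SRF with its ETS partners and CREB. Their products fall into transcription factors of the AP-1, EGR, KLF and NR4A families, which switch on later genes, and feedback factors that destroy mRNAs or remove phosphate from kinases and so end the response. In sensory ganglia Fos and its relatives are used as signs of recent activity or injury, and the same genes respond to handling and dissociation of tissue in many cell types.

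The letters before the transcription start of 5 members are shown because they carry the binding motifs through which this class of genes is switched on. They are the 250 bases before the annotated start on the gene's own strand, from RefSeq on the mouse assembly GRCm38.p6, an older build than the one the reads were aligned to. Capitals mark the half-site TGACG of the cAMP response element or its reverse CGTCA in Fos, Ccn1 and Nr4a1, the TATA motif TATAAA in Fos and Ccn1, the CArG box bound by SRF in Zfp36, and the full element TGACGTCA in Dusp1, where a further half-site is left in lower case. Fos lies at chr12:85473640-85473889 on the plus strand and Zfp36 at chr7:28379229-28379478 on the minus strand. Dusp1 lies at chr17:26508473-26508722 and Ccn1 at chr3:145649986-145650235, both on the minus strand. Nr4a1 lies at chr15:101266596-101266845 on the plus strand.
Fos: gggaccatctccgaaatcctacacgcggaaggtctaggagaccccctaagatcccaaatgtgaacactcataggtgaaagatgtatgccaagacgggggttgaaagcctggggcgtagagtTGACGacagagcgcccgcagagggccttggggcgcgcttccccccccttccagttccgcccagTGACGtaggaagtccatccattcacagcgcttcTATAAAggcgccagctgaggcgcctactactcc
Zfp36: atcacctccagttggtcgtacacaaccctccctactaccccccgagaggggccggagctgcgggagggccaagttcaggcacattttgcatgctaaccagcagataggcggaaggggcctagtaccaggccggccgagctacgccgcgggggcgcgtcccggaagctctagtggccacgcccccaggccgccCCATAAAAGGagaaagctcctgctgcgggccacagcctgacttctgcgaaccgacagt
Dusp1: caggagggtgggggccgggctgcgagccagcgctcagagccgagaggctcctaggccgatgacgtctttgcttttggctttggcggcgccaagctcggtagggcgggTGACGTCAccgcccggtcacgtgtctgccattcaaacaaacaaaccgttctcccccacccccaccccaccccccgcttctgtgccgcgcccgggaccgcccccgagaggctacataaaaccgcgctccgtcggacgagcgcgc
Ccn1: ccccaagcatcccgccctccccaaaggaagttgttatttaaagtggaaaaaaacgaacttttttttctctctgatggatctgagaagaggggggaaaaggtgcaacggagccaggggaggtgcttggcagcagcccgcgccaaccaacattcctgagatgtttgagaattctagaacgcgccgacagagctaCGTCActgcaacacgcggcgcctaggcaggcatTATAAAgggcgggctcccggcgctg
Nr4a1: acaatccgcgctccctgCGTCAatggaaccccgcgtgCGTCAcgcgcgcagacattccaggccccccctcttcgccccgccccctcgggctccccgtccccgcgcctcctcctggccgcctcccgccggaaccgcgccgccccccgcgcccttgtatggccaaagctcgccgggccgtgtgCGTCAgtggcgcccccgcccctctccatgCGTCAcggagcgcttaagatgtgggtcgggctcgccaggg

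Of the 38 symbols, 29 had such a window in the RefSeq table, and motifs were searched on both strands in the same 250 bases of all 27025 genes of the table. The half-site TGACG, which is also part of the full element, was present in 18 of 29 members (62.1%) and in 19.8% of all genes. The full TGACGTCA was present in 3 members (10.3%) and in 1.77% of all genes, and a CArG box in 3 members (10.3%) and in 1.62% of all genes. The AP-1 motif TGANTCA was found in 2 members (6.9%) and in 7.82% of all genes, and TATAAA in 5 members (17.2%) and in 14.3% of all genes. These are matches of letters and not measured binding. Among the 17 members with a window that were lower in both comparisons with WT vehicle described below, 13 held the half-site (76.5%), against 5 of the 12 other members with a window (41.7%), a difference that was not tested.

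The libraries held 26312614 to 42971823 counted reads. Ehmt2, the targeted gene, was at 45.0, 44.2, 34.0 and 31.6 CPM in the 4 iKO libraries, below the 61.3 to 74.4 CPM of the WT libraries. CPM, the unit of all levels below, are read counts scaled for depth and not for gene length, so levels are compared between libraries and not between genes. All 12 markers of sensory neurons were detected in every library. The WT vehicle libraries stood apart from the other 6. Their summed level of 7 nuclear noncoding RNAs was 4389 and 4446 CPM, against 210 to 316 CPM in the others, and 10 lymphocyte markers summed to 2135 and 878 CPM, against 3.71 to 53.6 CPM. The plasma cell gene Jchain made up 1944 and 780.1 CPM of these sums. The T cell genes Cd3g, Cd4 and Cd8a were also higher in both WT vehicle libraries than in any other. Cd4 was at 16.6 and 10.3 CPM there, against at most 3.54 CPM elsewhere. The T cell gene Cd3e was at 2.94 to 5.11 CPM in the iKO libraries and at 4.46 and 3.49 CPM in WT vehicle. Of these lymphocyte markers 10 were lower in WT CFA and 8 in iKO vehicle than in WT vehicle, with Mzb1 at 0 in both WT CFA libraries. Markers of skeletal muscle, 9 genes, summed to 425 CPM in WT vehicle library 1 and to 1.42 to 7.21 CPM in the 7 others, with Myh1 and Myh2 at 0 in both WT CFA libraries. The WT CFA libraries differed from each other, with myelinating Schwann cell markers at 7310 CPM in library 1 and 17808 CPM in library 2.

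The immediate early genes divided the libraries in one way above all: most were far higher in WT vehicle than in the 3 other groups, which lay close together. The 37 members summed to 1054 and 1076 CPM in the iKO CFA libraries, to 944 and 953 in the iKO vehicle libraries, to 1021 and 1030 in the WT CFA libraries, and to 2186 and 1875 in the WT vehicle libraries. As a share of all reads this was 0.0897 to 0.111% in the 6 other libraries, and 0.248 and 0.212% in WT vehicle. Both WT vehicle libraries lay above all 6 others for 28 of 37 members, which happened for 20.6% of all genes tested. They lay below all 6 others for 2 members, Jund and Klf10, against 17.1% of all genes. The ranges overlapped for the 7 remaining members, Egr4, Ier3, Arc, Dusp5, Klf4, Ccn2 and Rhob. In bulk tissue fewer cells of a type and less RNA per cell cannot be told apart. The part of the noncoding RNA, lymphocyte and muscle differences in these values was not tested.

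**Figure D1:**
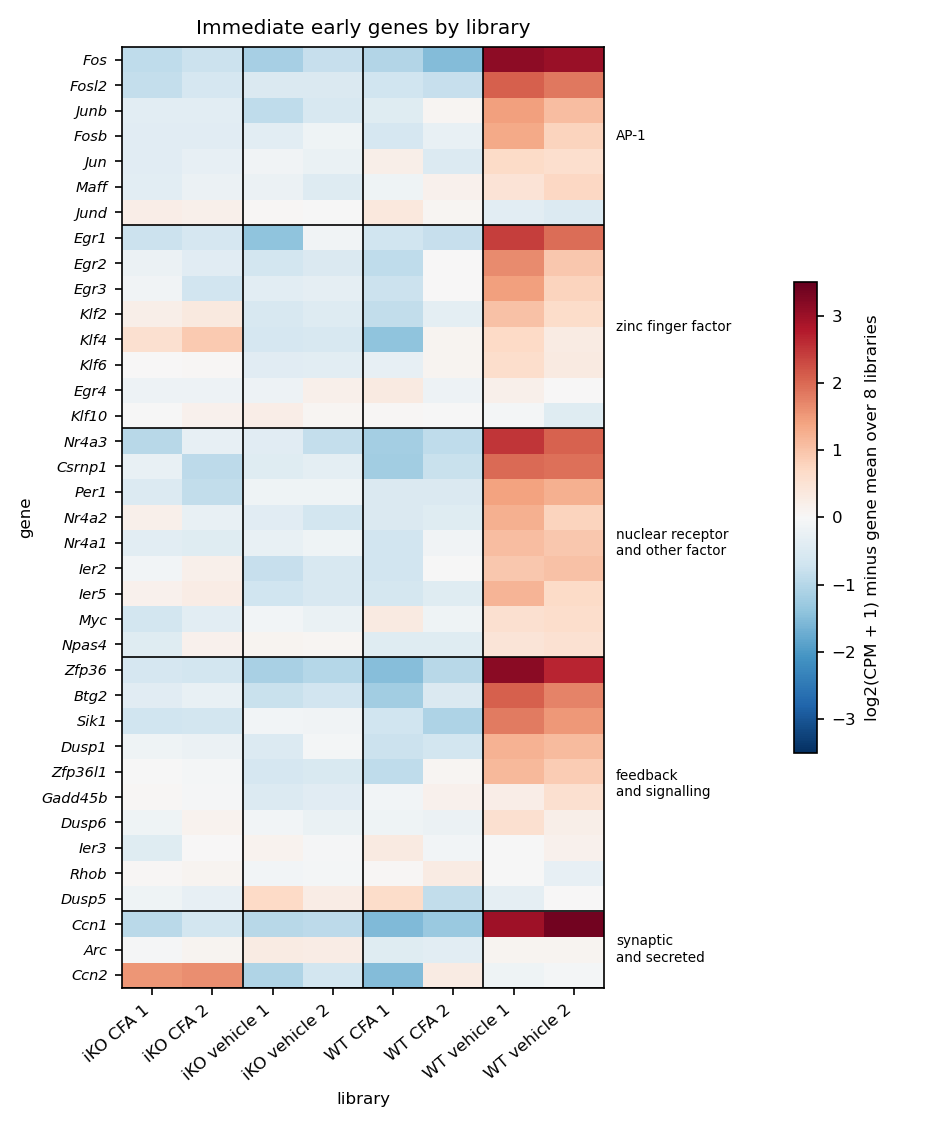
Each row is an immediate early gene, grouped by role, and each column a library; colour gives log2(CPM + 1) minus the gene's mean over the 8 libraries (red higher, blue lower). The WT vehicle columns are red for most genes, Jund and Klf10 are lowest there, and Ccn2 is highest in iKO CFA.

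The first comparison asks how CFA changed the ganglia of WT mice after 14 days. In WT CFA 21 members were lower than in WT vehicle, 1 member, Jund, was higher, and 15 did not pass, by edgeR's quasi-likelihood F-test with Benjamini-Hochberg adjustment over all genes and a threshold of 0.05. Of all genes tested, 8.71% were lower and 8.12% higher by the same rule (16.8% in all). The median log2 fold change was -1.45 over the 37 members and -0.03 over all genes. Both WT CFA libraries lay below both WT vehicle libraries for 30 members and above for 3, against 30.8% and 25.3% of all genes.

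The second comparison asks what the knockout changed without inflammation. In iKO vehicle 26 members were lower than in WT vehicle and 0 were higher, against 9.33% and 8.28% of all genes (17.6% in all). Unadjusted p was under 0.05 for 29 members, and the largest of these p, that of Jund, ranked 6472 among all 20235 genes. The median log2 fold change was -1.46 over the members and 0.01 over all genes. Both iKO vehicle libraries lay below both WT vehicle libraries for 30 members and above for 4, against 36.5% and 38.9% of all genes. The 2 comparisons share the WT vehicle libraries, so a high value there lowers the fold change in both, and the values for each member are given side by side below without any measure of their likeness.

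AP-1 is a dimer of a FOS and a JUN family protein that binds TGANTCA sites. Of its 7 measured members here, 4 fell and 1 rose in WT CFA, and 6 fell in iKO vehicle, each against WT vehicle. Fos, the founding member, was at 5.21 and 5.87 CPM in iKO CFA, 4.09 and 5.63 in iKO vehicle, 4.70 and 3.01 in WT CFA, and 99.1 and 91.9 in WT vehicle. Both WT vehicle values were more than 10 times those of any other library, and the 6 other values lay between 3.01 and 5.87 CPM. Its log2 fold change was -4.62 ± 0.28 (adjusted p = 2.0e-04) for WT CFA over WT vehicle and -4.30 ± 0.28 (adjusted p = 2.3e-04) for iKO vehicle over WT vehicle. Among all 20235 genes Fos had the p ranked 8 in the first comparison and 9 in the second. Fosl2, the FOS relative Fra-2, was at 13.7 and 16.7 CPM in iKO CFA, 17.4 and 17.6 in iKO vehicle, 15.2 and 14.1 in WT CFA, and 112 and 93.8 in WT vehicle. Its 6 values outside WT vehicle spanned a narrow range, and its log2 fold changes were -2.81 ± 0.19 (adjusted p = 2.6e-04) and -2.55 ± 0.19 (adjusted p = 3.2e-04). Fosb, which also gives the long-lived form called deltaFosB in neurons, was low, at 0.904 and 0.905 CPM in iKO CFA, 0.931 and 1.23 in iKO vehicle, 0.668 and 1.10 in WT CFA, and 5.23 and 3.28 in WT vehicle. It was higher in both WT vehicle libraries, with -2.27 ± 0.48 (adjusted p = 0.0175) in WT CFA and -1.97 ± 0.47 (adjusted p = 0.0246) in iKO vehicle.

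Among the partners of FOS proteins, Junb and Jun had log2 fold changes smaller in size than that of Fos, and Jund had a positive one. Junb was at 31.7 and 31.8 CPM in iKO CFA, 21.8 and 27.6 in iKO vehicle, 30.6 and 42.9 in WT CFA, and 114 and 87.7 in WT vehicle. WT vehicle did not overlap with any other group, and the log2 fold changes were -1.45 ± 0.23 (adjusted p = 0.00713) in WT CFA and -2.03 ± 0.24 (adjusted p = 0.00186) in iKO vehicle. Jun, the main partner of Fos in active dimers, was at 94.6 and 102 CPM in iKO CFA, 115 and 105 in iKO vehicle, 144 and 89.7 in WT CFA, and 199 and 189 in WT vehicle. It fell in iKO vehicle, at -0.82 ± 0.23 (adjusted p = 0.0430), and had -0.73 ± 0.23 (adjusted p = 0.0631) in WT CFA, where library 1 reached 144 CPM and library 2 only 89.7 CPM. Jund, the JUN family member that is made steadily rather than in bursts, ran the other way, at 231 and 223 CPM in iKO CFA, 204 and 196 in iKO vehicle, 257 and 207 in WT CFA, and 153 and 142 in WT vehicle. Both WT vehicle values were the lowest of the 8, and its log2 fold change was 0.65 ± 0.18 (adjusted p = 0.0415) in WT CFA and 0.44 ± 0.18 (adjusted p = 0.123) in iKO vehicle. The WT CFA call of Jund was lost in 10 of the 15 other settings tried, among them those without either WT vehicle library, either iKO vehicle library or either iKO CFA library (adjusted p up to 0.270). Maff, a small MAF protein that pairs with AP-1 and related factors, was at 7.26 and 8.33 CPM in iKO CFA, 8.26 and 6.77 in iKO vehicle, 8.71 and 11.0 in WT CFA, and 14.0 and 16.6 in WT vehicle. It fell in iKO vehicle, at -1.02 ± 0.24 (adjusted p = 0.0228), and had -0.64 ± 0.24 (adjusted p = 0.0941) in WT CFA.

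Of the 8 zinc finger factors, 4 fell in WT CFA and 5 in iKO vehicle. Egr1, which follows growth factor and calcium signals in nearly all cells, was at 15.3 and 17.4 CPM in iKO CFA, 9.27 and 24.3 in iKO vehicle, 15.9 and 14.6 in WT CFA, and 147 and 105 in WT vehicle. On the log scale the iKO vehicle libraries differed from each other more than those of any other group, yet both lay far below WT vehicle, and the log2 fold changes were -3.04 ± 0.41 (adjusted p = 0.00405) in WT CFA and -2.91 ± 0.41 (adjusted p = 0.00388) in iKO vehicle. Egr2, which in Schwann cells also drives myelination, was at 18.0 and 15.8 CPM in iKO CFA, 13.1 and 14.6 in iKO vehicle, 11.0 and 21.2 in WT CFA, and 68.2 and 41.4 in WT vehicle. WT vehicle lay above all other libraries, with -1.77 ± 0.34 (adjusted p = 0.0131) and -1.99 ± 0.34 (adjusted p = 0.00809) in the same order of comparisons. Egr3, a target of Egr1-type signalling in muscle spindles and neurons, was at 7.65 and 4.85 CPM in iKO CFA, 6.25 and 6.57 in iKO vehicle, 4.62 and 8.45 in WT CFA, and 24.4 and 15.0 in WT vehicle. Its calls rested on log2 fold changes of -1.60 ± 0.38 (adjusted p = 0.0249) and -1.62 ± 0.37 (adjusted p = 0.0227). Egr4 was near the limit of detection, with fewer than 0.5 CPM in every library and 0 reads in both iKO CFA libraries. The 10 reads in iKO vehicle were all in library 2, and the 15 in WT CFA all in library 1. Against a floor of 3 reads over the group, iKO CFA was at least 3.07-fold below iKO vehicle and 5.23-fold below WT CFA. Each bound rests on the 1 library with reads, the groups overlapped, and none of these comparisons passed.

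Among the KLF factors, Klf2 keeps vessels and lymphocytes quiescent and Klf4 acts in vessels, epithelia and stem cells. Klf2 was at 14.9 and 16.6 CPM in iKO CFA, 8.41 and 9.04 in iKO vehicle, 6.65 and 9.82 in WT CFA, and 27.3 and 20.6 in WT vehicle. Both WT vehicle libraries were highest and both iKO CFA libraries came next, with -1.54 ± 0.25 (adjusted p = 0.00780) in WT CFA and -1.46 ± 0.25 (adjusted p = 0.00829) in iKO vehicle. Klf6, which responds to injury in many tissues, was at 106 and 108 CPM in iKO CFA, 79.4 and 80.8 in iKO vehicle, 87.2 and 112 in WT CFA, and 164 and 131 in WT vehicle. It fell in iKO vehicle, at -0.88 ± 0.20 (adjusted p = 0.0202), and had -0.57 ± 0.20 (adjusted p = 0.0798) in WT CFA. Klf4 and Klf10, a target of TGF-beta, passed in neither comparison with all 8 libraries. In WT CFA Klf4 had -1.12 ± 0.50 (adjusted p = 0.158) with all libraries, and its WT CFA libraries differed, at 2.24 and 8.21 CPM. Without WT CFA library 2, which leaves only the lower library 1 in that group, its log2 fold change was -2.33. Klf10 varied little, between 17.7 and 28.9 CPM over the 8 libraries.

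Of the nuclear receptors and other transcription factors, 7 of 9 fell in WT CFA and 8 of 9 in iKO vehicle. The NR4A receptors are orphan receptors that act without a known hormone and are controlled by how much of them is made. Nr4a3 was at 0.572 and 1.51 CPM in iKO CFA, 1.35 and 0.718 in iKO vehicle, 0.347 and 0.650 in WT CFA, and 16.2 and 11.7 in WT vehicle. No value outside WT vehicle exceeded 1.51 CPM, and the log2 fold changes were -4.82 ± 0.59 (adjusted p = 0.00282) in WT CFA and -3.74 ± 0.55 (adjusted p = 0.00437) in iKO vehicle. Nr4a1, which is also induced in T cells by their receptor, was at 30.4 and 28.9 CPM in iKO CFA, 32.8 and 35.6 in iKO vehicle, 24.2 and 36.4 in WT CFA, and 84.3 and 76.4 in WT vehicle. Nr4a2 was at 11.7 and 8.33 CPM in iKO CFA, 7.57 and 6.26 in iKO vehicle, 6.89 and 7.39 in WT CFA, and 25.7 and 18.4 in WT vehicle. Both were highest in the WT vehicle libraries with no overlap, Nr4a1 with -1.41 ± 0.22 (adjusted p = 0.00642) and -1.23 ± 0.22 (adjusted p = 0.00867), and Nr4a2 with -1.63 ± 0.27 (adjusted p = 0.00769) and -1.67 ± 0.27 (adjusted p = 0.00613).

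Csrnp1, a nuclear protein, was at 6.48 and 3.76 CPM in iKO CFA, 5.61 and 6.0 in iKO vehicle, 2.83 and 4.21 in WT CFA, and 34.3 and 33.1 in WT vehicle. WT vehicle was more than 5 times every other library, with -3.26 ± 0.32 (adjusted p = 0.00124) in WT CFA and -2.54 ± 0.31 (adjusted p = 0.00222) in iKO vehicle. Per1, a repressor in the circadian clock that CREB and glucocorticoids also induce, was at 18.1 and 13.6 CPM in iKO CFA, 23.0 and 23.1 in iKO vehicle, 17.8 and 17.8 in WT CFA, and 69.4 and 62.0 in WT vehicle. The other groups stayed between 13.6 and 23.1 CPM, and the log2 fold changes were -1.88 ± 0.19 (adjusted p = 0.00148) and -1.51 ± 0.19 (adjusted p = 0.00268). Hour of collection was not stated. Ier2, a small nuclear protein, was at 8.89 and 11.0 CPM in iKO CFA, 5.0 and 6.17 in iKO vehicle, 5.61 and 9.38 in WT CFA, and 19.3 and 20.4 in WT vehicle. Ier5, which acts with a phosphatase on heat shock factor and other targets, was at 11.9 and 12.9 CPM in iKO CFA, 6.18 and 6.77 in iKO vehicle, 6.60 and 7.60 in WT CFA, and 25.5 and 17.5 in WT vehicle. Both fell, Ier2 with -1.41 ± 0.29 (adjusted p = 0.0154) and -1.83 ± 0.29 (adjusted p = 0.00594) and Ier5 with -1.60 ± 0.24 (adjusted p = 0.00631) and -1.73 ± 0.24 (adjusted p = 0.00400). Myc, a factor for growth and ribosome production, was at 7.29 and 8.96 CPM in iKO CFA, 11.0 and 9.96 in iKO vehicle, 14.8 and 10.5 in WT CFA, and 17.9 and 18.8 in WT vehicle. It fell in iKO vehicle, at -0.81 ± 0.24 (adjusted p = 0.0472), and had -0.53 ± 0.23 (adjusted p = 0.150) in WT CFA.

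Npas4, which is induced in neurons by calcium entry and by little else, was almost absent. It was at 0 and 0.493 CPM in iKO CFA, 0.441 and 0.402 in iKO vehicle, 0 and 0 in WT CFA, and 0.838 and 0.953 in WT vehicle. The WT CFA libraries held 0 reads and the WT vehicle libraries 57, so WT CFA was at least 20.0-fold lower against a floor of 3 reads over the group, which did not pass (adjusted p = 0.0541). It did in 7 of 15 other settings, with an adjusted p of 0.00409 by DESeq2 and of 0.0276 to 0.0486 in the 6 others. In iKO CFA it had 18 reads, all in library 2, at least 5.74-fold higher than WT CFA, which did not pass either (adjusted p = 0.299).

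**Figure D2:**
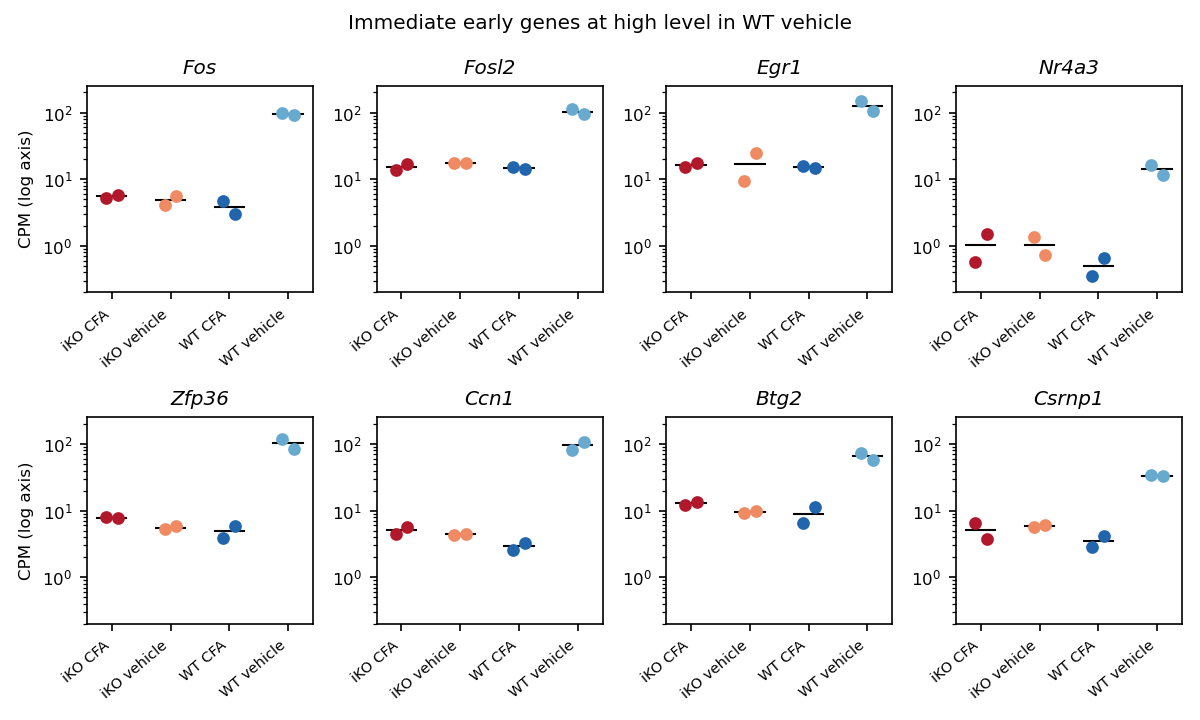
Points are single libraries and bars group means, in CPM on a log axis, for 8 members. Both WT vehicle libraries stand above all 6 others in each panel, and the 3 other groups lie within or next to each other.

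Of the 10 feedback and signalling genes, 5 fell in WT CFA and 6 in iKO vehicle. Zfp36, the protein tristetraprolin that binds AU-rich mRNAs of cytokines and immediate early genes and has them degraded, was at 8.01 and 7.73 CPM in iKO CFA, 5.25 and 5.88 in iKO vehicle, 3.90 and 5.95 in WT CFA, and 119.8 and 85.5 in WT vehicle. Its lowest WT vehicle value was more than 10 times its highest value elsewhere, with -4.39 ± 0.28 (adjusted p = 2.1e-04) in WT CFA and -4.21 ± 0.28 (adjusted p = 2.3e-04) in iKO vehicle. Its relative Zfp36l1 was at 29.0 and 28.1 CPM in iKO CFA, 19.1 and 20.0 in iKO vehicle, 15.5 and 30.8 in WT CFA, and 64.9 and 54.7 in WT vehicle. The WT CFA libraries differed from each other, and the log2 fold changes were smaller, -1.37 ± 0.29 (adjusted p = 0.0183) and -1.61 ± 0.29 (adjusted p = 0.0100). Btg2, which recruits the machinery that shortens poly(A) tails and slows the cell cycle, was at 12.2 and 13.6 CPM in iKO CFA, 9.07 and 10.0 in iKO vehicle, 6.46 and 11.2 in WT CFA, and 73.0 and 56.9 in WT vehicle. Its groups outside WT vehicle stayed below 14 CPM, with -2.88 ± 0.28 (adjusted p = 0.00124) in WT CFA and -2.77 ± 0.28 (adjusted p = 0.00110) in iKO vehicle.

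Dusp1, a nuclear phosphatase that turns off p38 and JNK, was at 28.1 and 27.0 CPM in iKO CFA, 22.3 and 29.7 in iKO vehicle, 18.3 and 19.7 in WT CFA, and 74.6 and 68.5 in WT vehicle. WT vehicle did not overlap with the rest, and the log2 fold changes were -1.92 ± 0.19 (adjusted p = 0.00137) and -1.46 ± 0.19 (adjusted p = 0.00291). The ERK phosphatases Dusp6 and Dusp5 passed in neither comparison with all 8 libraries. Dusp6, which acts in the cytoplasm, was at 33.5 and 40.5 CPM in iKO CFA, 34.8 and 31.5 in iKO vehicle, 33.4 and 32.3 in WT CFA, and 56.1 and 43.2 in WT vehicle. Its log2 fold changes were -0.60 ± 0.19 (adjusted p = 0.0679) in WT CFA and -0.58 ± 0.19 (adjusted p = 0.0705) in iKO vehicle. By DESeq2 it was lower in both, at -0.63 ± 0.23 (adjusted p = 0.0261) and -0.64 ± 0.23 (adjusted p = 0.0205). Dusp5, which acts in the nucleus, was at 19.0 and 17.3 CPM in iKO CFA, 34.9 and 25.4 in iKO vehicle, 33.9 and 11.1 in WT CFA, and 16.8 and 21.6 in WT vehicle. The WT CFA libraries lay on either side of WT vehicle, and its log2 fold change in WT CFA was 0.23 ± 0.43 (adjusted p = 0.752) with all libraries, -0.80 ± 0.24 (adjusted p = 0.0267) without WT CFA library 1 and 0.82 ± 0.22 (adjusted p = 0.0163) without WT CFA library 2. Sik1, a kinase that holds back the CREB coactivators, was at 4.64 and 4.82 CPM in iKO CFA, 7.45 and 7.43 in iKO vehicle, 4.65 and 3.29 in WT CFA, and 31.4 and 24.9 in WT vehicle. It fell in both comparisons, -2.82 ± 0.25 (adjusted p = 9.8e-04) and -1.92 ± 0.24 (adjusted p = 0.00271). Gadd45b, a stress protein also linked to DNA demethylation in neurons, was at 8.89 and 8.25 CPM in iKO CFA, 5.86 and 6.29 in iKO vehicle, 7.96 and 9.65 in WT CFA, and 10.2 and 13.0 in WT vehicle. It passed in iKO vehicle only, -0.93 ± 0.24 (adjusted p = 0.0310), with -0.40 ± 0.24 (adjusted p = 0.271) in WT CFA, and the difference between the 2 was not tested. Ier3, an inhibitor of cell death, ranged from 10.6 to 18.1 CPM and Rhob, a small GTPase of endosomes and the cytoskeleton, from 142 to 210.3 CPM, and both overlapped between WT vehicle and the other libraries.

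The secreted and synaptic products had 1 fall of 3 in each comparison. Ccn1, a matrix protein made by fibroblasts and vessel cells under SRF and YAP control, was at 4.52 and 5.70 CPM in iKO CFA, 4.36 and 4.54 in iKO vehicle, 2.59 and 3.29 in WT CFA, and 81.4 and 109 in WT vehicle. No other library exceeded 5.70 CPM, and its log2 fold change was -5.02 ± 0.26 (adjusted p = 1.3e-04) in WT CFA and -4.42 ± 0.25 (adjusted p = 2.1e-04) in iKO vehicle, with ranks of 3 and 4 by p among all genes. Its relative Ccn2, a matrix protein that fibroblasts make under TGF-beta, passed in neither comparison with all 8 libraries. It was at 35.6 and 37.9 CPM in iKO CFA, 5.12 and 7.09 in iKO vehicle, 3.37 and 14.3 in WT CFA, and 10.3 and 10.9 in WT vehicle. Both iKO CFA values were the highest, and the WT CFA libraries differed from each other by more than those of any other group. Its log2 fold change in WT CFA was -0.27 ± 0.52 (adjusted p = 0.758) with all libraries. It was -1.66 without WT CFA library 2, which leaves only the lower library 1, at 3.37 CPM, in that group. Arc, a synaptic protein that removes AMPA receptors and follows neuronal activity, ranged only from 2.72 to 5.12 CPM. Its log2 fold change was -0.65 ± 0.27 (adjusted p = 0.137) in WT CFA and 0.22 ± 0.27 (adjusted p = 0.596) in iKO vehicle.

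**Figure D3:**
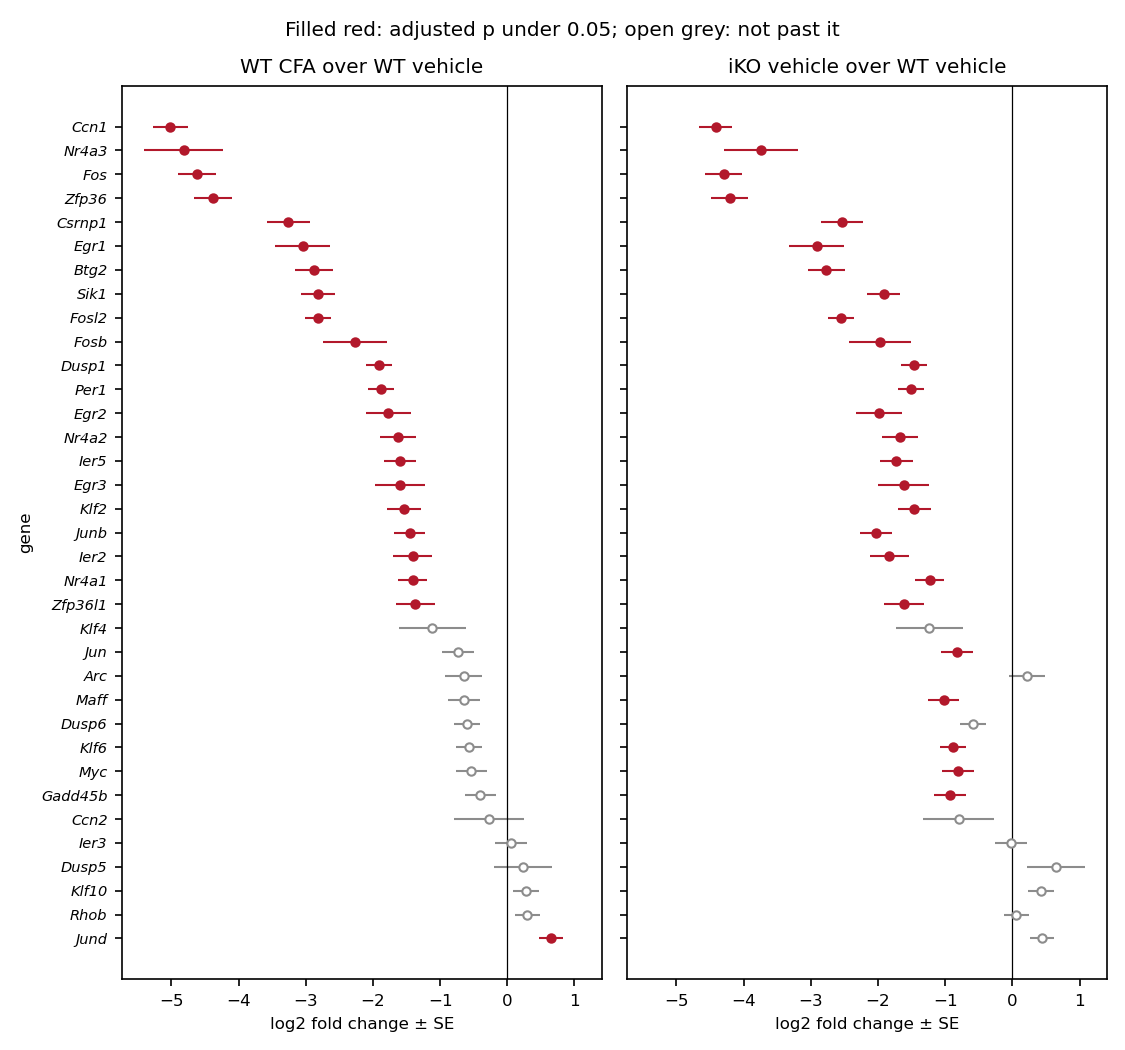
Log2 fold changes with their standard errors for 35 members (Npas4 and Egr4, which have groups at 0 reads, are left out), for WT CFA over WT vehicle on the left and iKO vehicle over WT vehicle on the right, 2 libraries a group. Filled points passed an adjusted p of 0.05. Both panels use the same WT vehicle libraries.

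The calls against WT vehicle depended on its library 1. Without it fewer members, and also fewer of all genes, were called in both comparisons. The same held for iKO vehicle without either of its own libraries. Without WT vehicle library 1 the median log2 fold change of the members was -1.30 in WT CFA and -1.26 in iKO vehicle. Over all genes it was then -0.03 and 0.01. The 11 members that kept the call in WT CFA without each library in turn were Fos, Fosl2, Egr1, Nr4a3, Zfp36, Btg2, Dusp1, Ccn1, Per1, Sik1 and Csrnp1. In iKO vehicle 12 members did so, namely Fos, Fosl2, Junb, Egr1, Ier5, Zfp36, Btg2, Dusp1, Ccn1, Per1, Sik1 and Csrnp1, and each of the 14 others lost it both without WT vehicle library 1 and without iKO vehicle library 2. All 10 other calls of a fall in WT CFA were lost without WT vehicle library 1, those of Ier2 and Zfp36l1 also without WT vehicle library 2. Leaving out a WT CFA library, which left that group with 1, added calls in both comparisons, among the members and also among all genes. Dusp5, Dusp6, Jun and Myc were then also lower in WT CFA without library 1, and Ccn2, Dusp6, Jun, Klf4, Klf6 and Maff without library 2. In iKO vehicle Ccn2, Dusp6 and Klf4 were also lower, and Dusp5 and Jund higher, without WT CFA library 1 and likewise without library 2.

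The next comparison asks whether CFA changed the ganglia of the knockouts. No member passed in iKO CFA against iKO vehicle, in either direction, by edgeR's quasi-likelihood test over all 8 libraries, where 0% of all genes were lower and 0.0395% higher. Unadjusted p was under 0.05 for 7 members, and the largest of these p, that of Sik1, ranked 3951 among all 20235 genes. DESeq2 called 4 members higher, Ccn2, Ier5, Klf2 and Klf4, and called 17.0% of all genes in either direction. Both iKO CFA libraries lay above both iKO vehicle libraries for 15 members and below for 9, against 33.9% and 35.6% of all genes, so the counts are near the background. The median log2 fold change was 0.08 over the members and -0.001 over all genes. Fos, Egr1 and Nr4a3 overlapped between the 2 groups, with log2 fold changes of 0.19 ± 0.25, -0.03 ± 0.39 and 0.01 ± 0.53.

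The smallest p in this comparison belonged to the matrix gene Ccn2, followed by Ier5, Klf2, Klf4 and Ier2. Ccn2, given above, was at 35.6 and 37.9 CPM in iKO CFA, against 5.12 and 7.09 CPM in iKO vehicle. The groups were far apart relative to their own spread, with a log2 fold change of 2.59 ± 0.54 (adjusted p = 0.0903). Klf4 was at 11.6 and 15.2 CPM in iKO CFA, 4.78 and 4.79 in iKO vehicle, 2.24 and 8.21 in WT CFA, and 13.1 and 9.47 in WT vehicle. It had 1.49 ± 0.50 (adjusted p = 0.115), with both iKO CFA libraries above both iKO vehicle libraries. Ier5 had 0.94 ± 0.24 (adjusted p = 0.0967), Klf2 0.85 ± 0.25 (adjusted p = 0.103) and Ier2 0.83 ± 0.28 (adjusted p = 0.116), each likewise without overlap. On the lower side were Per1 with -0.54 ± 0.19 (adjusted p = 0.122) and Sik1 with -0.65 ± 0.24 (adjusted p = 0.131). None of these values passed in this fit to all 8 libraries. Ccn2 did with no filter on low counts, at 2.57 ± 0.48 (adjusted p = 0.0328), and by DESeq2, at 2.61 ± 0.55 (adjusted p = 2.1e-04).

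That outcome depended on the WT CFA libraries, which differ from each other and enter the shared estimate of the spread. Without WT CFA library 1 or library 2, 7 members were higher in iKO CFA (Ccn2, Klf4, Ier5, Klf2, Ier2, Zfp36l1 and Klf6) and 3 were lower (Dusp5, Per1 and Sik1), against 32.2% and 32.0% of all genes called in either direction. With the 4 iKO libraries alone, 11 members were higher and 3 lower, against 45.3% of all genes. Ccn2 then kept nearly the same log2 fold change, 2.62 ± 0.17 (adjusted p = 9.3e-06). Tissue markers moved with it. Fibroblast markers summed to 2329 and 2469 CPM in iKO CFA and to 979 and 1059 CPM in iKO vehicle, endothelial markers to 269 and 282 CPM and to 119 and 131 CPM, and neutrophil markers to 1267 and 1261 CPM and to 80.9 and 54.4 CPM. Sensory neuron markers summed to 16782 and 16905 CPM in iKO CFA and to 21763 and 22106 CPM in iKO vehicle. The part of these shifts in the values of Ccn2, Klf2 and Klf4 was not tested.

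**Figure D4:**
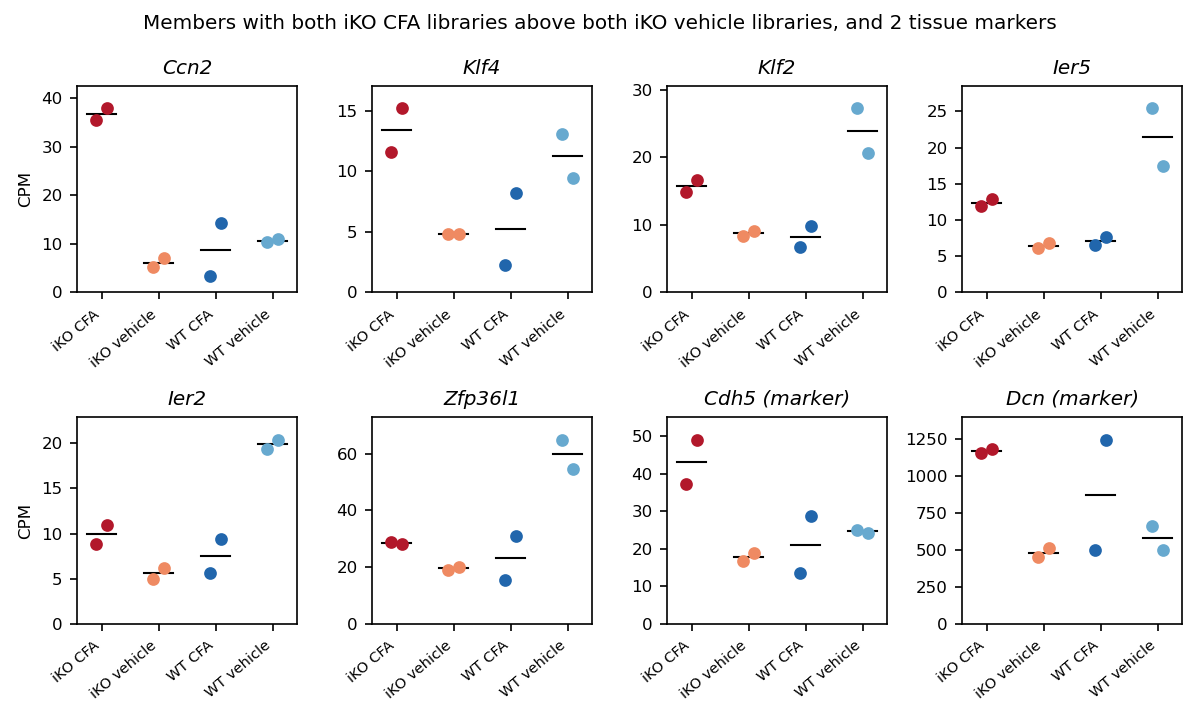
CPM by library for 6 members whose iKO CFA libraries both lay above both iKO vehicle libraries, and for Cdh5, an endothelial marker, and Dcn, a fibroblast marker; bars are group means. Ccn2 is highest in both iKO CFA libraries, Klf4 overlaps between iKO CFA and WT vehicle, and the markers are higher in iKO CFA than in iKO vehicle and split the WT CFA libraries.

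Between genotypes under CFA 0 members passed in iKO CFA against WT CFA, where 0.208% of all genes were lower and 1.5% higher (1.7% in all) by edgeR's test. Unadjusted p was under 0.05 for 9 members, and the largest of these p, that of Npas4, ranked 2434 among all 20235 genes. DESeq2 called 2 members higher, Ccn2 and Klf2, and called 6.09% of all genes in either direction. Both iKO CFA libraries lay above both WT CFA libraries for 12 members and below for 2, Maff and Myc, against 21.6% and 16.7% of all genes. Ccn2 had 2.07 ± 0.53 (adjusted p = 0.113), Klf2 0.93 ± 0.25 (adjusted p = 0.127), Ccn1 0.80 ± 0.23 (adjusted p = 0.156) and Ier5 0.81 ± 0.24 (adjusted p = 0.165). The median log2 fold change was 0.10 over the members and -0.02 over all genes. Without WT CFA library 2, 10 members were higher, among them Ccn2 with 3.44 ± 0.27 (adjusted p = 3.7e-05), Klf4 with 2.57 ± 0.33 (adjusted p = 4.3e-04) and Klf2 with 1.23 ± 0.24 (adjusted p = 0.00342). Dusp5, Myc and Jun were then lower, against 26.8% of all genes called in either direction. Without WT CFA library 1 only Ccn2 passed, with 1.37 ± 0.23 (adjusted p = 0.00943). Fibroblast markers summed to 2329 and 2469 CPM in iKO CFA, against 1177 and 2526 CPM in WT CFA.

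The last comparison asks whether the CFA response itself differed between genotypes, as the response in iKO minus the response in WT. It was more positive in iKO for 20 members and more negative for 0, against 6.19% and 3.17% of all genes (9.36% in all). Among the members that passed, the largest differences were Ccn1 with 5.22 ± 0.34 (adjusted p = 8.4e-04), Zfp36 with 4.89 ± 0.37 (adjusted p = 0.00108), Nr4a3 with 4.83 ± 0.78 (adjusted p = 0.0105) and Fos with 4.81 ± 0.37 (adjusted p = 0.00108). For Fos this set a response of 0.19 ± 0.25 in iKO beside -4.62 ± 0.28 in WT, and for Ccn1 0.20 ± 0.23 beside -5.02 ± 0.26. In these 4 members the WT vehicle level was high and the 3 other groups were low. For every member that passed except Ccn2, both WT vehicle libraries, which enter the difference, lay above all other libraries. Ccn2 had another pattern, with its highest level in iKO CFA, and a difference of 2.87 ± 0.75 (adjusted p = 0.0481). Jund, Dusp5, Klf10, Ier3, Rhob and Egr4 had differences below 0, and none passed. Without WT vehicle library 1 the count was 8, namely Fos, Fosl2, Ier5, Zfp36, Btg2, Dusp1, Ccn1 and Csrnp1, and these 8 kept the call without each library. Fewer of all genes passed without WT vehicle library 1 too. Fewer members, and fewer of all genes, also passed without either iKO vehicle library or either iKO CFA library. More of both passed without either WT CFA library. Each of these fits leaves 1 library in a group.

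Other genes of the same pathways were taken from lists chosen with earlier results of these data known, and none of the lists was tested as a set. Of 43 other rapidly induced genes, 21 were lower and 1 higher in WT CFA than in WT vehicle. In iKO vehicle 24 were lower and 1 higher than in WT vehicle. Of all genes, 8.71% were lower and 8.12% higher in WT CFA, and 9.33% and 8.28% in iKO vehicle. In iKO CFA against iKO vehicle 0 passed, beside 0.0395% of all genes. In iKO CFA against WT CFA 1 was higher, the prostaglandin synthase Ptgs2, beside 1.5% of all genes. Socs3, an inhibitor of cytokine signalling, was at 16.3 and 16.0 CPM in iKO CFA, 11.2 and 13.7 in iKO vehicle, 11.9 and 12.7 in WT CFA, and 102 and 94.8 in WT vehicle. It had -3.00 ± 0.19 (adjusted p = 2.0e-04) in WT CFA and -2.98 ± 0.19 (adjusted p = 2.3e-04) in iKO vehicle. Atf3, a stress factor of injured sensory neurons, was at 18.8 and 16.7 CPM in iKO CFA, 15.2 and 17.6 in iKO vehicle, 22.5 and 32.8 in WT CFA, and 117 and 86.8 in WT vehicle. It fell in iKO vehicle with -2.63 ± 0.25 (adjusted p = 8.5e-04). Cebpd, a factor of acute inflammation, fell in both, with -2.07 ± 0.23 (adjusted p = 0.00181) and -2.39 ± 0.23 (adjusted p = 9.2e-04).

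Of the genes that act upstream, each count below stands beside 8.71% of all genes lower and 8.12% higher in WT CFA, and 9.33% lower and 8.28% higher in iKO vehicle. Of 8 genes listed as SRF, its partners and ETS factors, 3 were lower in WT CFA (Ets1, Elk4 and Elk3) and 2 in iKO vehicle (Ets1 and Elk3). Srf itself passed in neither. Of 11 CREB and MEF2 factors 2 were lower in each, Crem and Ep300 in WT CFA and Crem and Atf1 in iKO vehicle. Of 19 genes of ERK and calcium kinase signalling 0 were lower, 4 were higher in WT CFA and 6 in iKO vehicle. Mapk3, the kinase ERK1, was higher in both, with 0.90 ± 0.20 (adjusted p = 0.0226) and 0.95 ± 0.20 (adjusted p = 0.0177). Macrophage markers summed to 713 and 779 CPM in the iKO CFA libraries, to 198 and 147 in the iKO vehicle libraries, to 197 and 563 in the WT CFA libraries, and to 864 and 629 in the WT vehicle libraries.

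Genes that follow neuronal activity with a delay ran opposite to the immediate early genes in several cases. Of 14 late response genes 4 were higher and 0 lower in WT CFA, and 5 were higher and 1 lower in iKO vehicle. The shares of all genes, also for the marker counts below, were 8.12% higher and 8.71% lower in WT CFA. In iKO vehicle they were 8.28% higher and 9.33% lower. Bdnf, a growth factor of nociceptors, was at 77.2 and 71.8 CPM in iKO CFA, 58.9 and 49.6 in iKO vehicle, 65.9 and 82.8 in WT CFA, and 30.2 and 35.1 in WT vehicle. It was lowest in both WT vehicle libraries and had 1.19 ± 0.19 (adjusted p = 0.00773) in WT CFA. Nrn1, Scg2 and Adcyap1 also rose there, and Nptx1, Nptx2 and Vgf were among those higher in iKO vehicle, where Rgs2 was lower at -0.99 ± 0.23 (adjusted p = 0.0236). Of 12 sensory neuron markers 4 were higher in WT CFA and 3 in iKO vehicle, and their sums were 21763 and 22106 CPM in the iKO vehicle libraries, 22993 and 18756 in the WT CFA libraries, and 10360 and 13623 in the WT vehicle libraries. Their part in these values was not tested.

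Of 14 heat shock genes, another class induced by stress, 3 were lower in WT CFA, and 2 were lower and 1 higher in iKO vehicle. Beside these counts and those below stand 8.71% of all genes lower in WT CFA, and 9.33% lower and 8.28% higher in iKO vehicle. Hspa1a and Hspa1b, near-identical copies whose reads may be shared, were lower in both, and Bag3 was higher in iKO vehicle. Of 9 glucocorticoid response genes 5 were lower in WT CFA and 3 in iKO vehicle, among them Nfkbia with -1.52 ± 0.24 (adjusted p = 0.00713) and -1.45 ± 0.24 (adjusted p = 0.00729) and Zbtb16 with -3.82 ± 0.79 (adjusted p = 0.0164) and -2.50 ± 0.73 (adjusted p = 0.0475). All 7 nuclear noncoding RNAs were lower in both comparisons. In iKO CFA against iKO vehicle, 0 genes of these lists passed, beside 0.0395% of all genes.

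**Figure D5:**
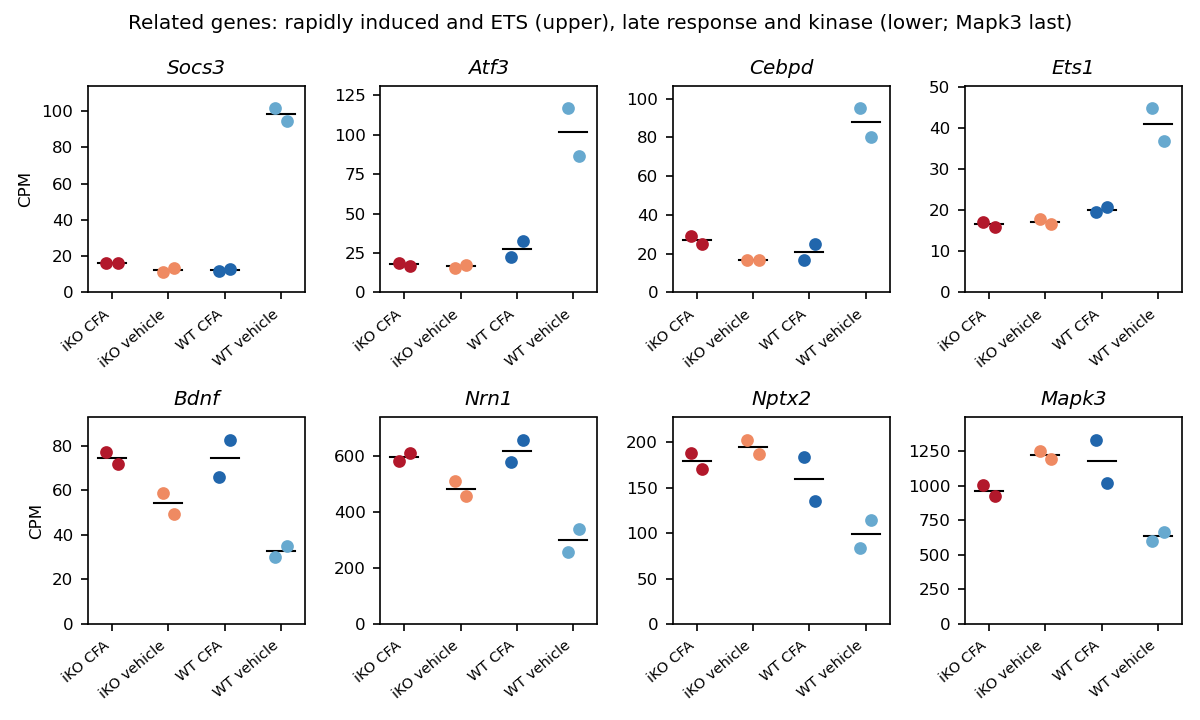
CPM by library for 8 genes outside the list of members; bars are group means. Socs3, Atf3, Cebpd and Ets1 are highest in both WT vehicle libraries, while Bdnf, Nrn1, Nptx2 and Mapk3 are lowest there.

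Libraries of 1 group varied to different degrees. Between the libraries of a group the absolute log2 difference had a median of 0.148 over the members in iKO CFA, 0.130 in iKO vehicle, 0.398 in WT CFA and 0.315 in WT vehicle. Over all genes it was 0.156, 0.124, 0.392 and 0.210, so the members were as variable as other genes in 3 groups and somewhat more in WT vehicle. The widest pairs were Nr4a3 in iKO CFA, Egr1 in iKO vehicle, Ccn2 in WT CFA and Egr2 in WT vehicle.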

How the data were processed

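Total RNA of whole ganglia was sequenced. Per gene symbol the authors deposited raw read counts. Per the submitters' processing notes the authors used HISAT2 2.2.1, SAMtools 1.19.2, featureCounts 2.0.6 and DESeq2 on GRCm39 (mm39). The annotation and the strand setting are not given in the sources used here, so reads of overlapping genes cannot be told apart.

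The analysis used edgeR 4.0.16 under R 4.3.3: filterByExpr (20235 of 25780 genes, at least 99.9% of the reads), TMM scaling, and 1 quasi-likelihood fit with legacy = TRUE to all 8 libraries, so the groups share 1 estimate of the spread. F-tests were two-sided, with Benjamini-Hochberg adjustment over all genes tested and a threshold of 0.05. Log2 fold changes are ± standard error. P-values measure the spread between 2 libraries a group, which may be technical. The standard errors come from the same F-tests and include the spread between libraries, while floors cover counting error only. The fit was tested on simulated data. DESeq2 1.42.0, other scalings, no filter, legacy = FALSE, a replicate block, fits of only the groups compared and leaving out each library were alternatives.

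The members, the lists and the rule for named genes (values per library for members past the threshold in any comparison, and at most the 4 smallest p of a related list in a comparison) were chosen with earlier results of these data known. A list of related transcription factors is not reported here.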

Additional observations from a re-analysis of the deposited data

Results flagged for a closer look

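The CFA response of 20 members differed between genotypes by the test of the difference itself (response in iKO minus response in WT, log2, adjusted p under 0.05 over all genes tested). Among AP-1 genes these were Fos at 4.81 ± 0.37, Fosl2 at 2.61 ± 0.26 and Junb at 1.82 ± 0.32. Among zinc finger factors they were Egr1 at 3.01 ± 0.55, Egr2 at 2.06 ± 0.47 and Klf2 at 2.39 ± 0.36. Among nuclear receptors and other factors they were Nr4a1 at 1.20 ± 0.30, Nr4a2 at 2.16 ± 0.37, Nr4a3 at 4.83 ± 0.78, Ier2 at 2.24 ± 0.40, Ier5 at 2.53 ± 0.34, Csrnp1 at 3.08 ± 0.43 and Per1 at 1.35 ± 0.27. Among feedback genes they were Zfp36 at 4.89 ± 0.37, Zfp36l1 at 1.92 ± 0.41, Btg2 at 3.31 ± 0.39, Dusp1 at 2.0 ± 0.27 and Sik1 at 2.17 ± 0.34. Among secreted products they were Ccn1 at 5.22 ± 0.34 and Ccn2 at 2.87 ± 0.75. For each of the 20 but Ccn2, both WT vehicle libraries, which enter the difference, lay above all other libraries. By edgeR's test with all 8 libraries, no member passed in iKO CFA against iKO vehicle or against WT CFA. The adjusted p of Ccn2 was 0.0481 and that of Nr4a1 0.0438, and both lost the call without any 1 of 6 libraries, all but the WT CFA ones.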

How the results depend on the processing

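No member called in a comparison changed sign under any setting. In WT CFA 11 of 22 calls were kept in every setting, in iKO vehicle 12 of 26 and in the difference of responses 8 of 20, the same numbers as without each library alone. Leaving out each library gave 11 to 27 members lower and 0 to 2 higher in WT CFA against WT vehicle, with 259 to 7474 genes called in all. It gave 0 to 3 lower and 0 to 7 higher members in iKO CFA against iKO vehicle (0 to 6951 genes), 12 to 29 and 0 to 2 in iKO against WT under vehicle (394 to 8464 genes), 0 to 3 and 0 to 10 under CFA (73 to 5819 genes), and 0 to 2 and 8 to 26 for the difference (228 to 8303 genes). Where this left a group with 1 library, that library is assumed to vary like the others. The single higher member in WT CFA was 0 with total counts, no filter, the replicate block, or only the groups compared. Genes called in WT CFA were 5154 by DESeq2 and 754 with only the groups compared. In iKO CFA against iKO vehicle, higher members were 1 with no filter, 4 by DESeq2 and 11 with only the groups compared, which also gave 3 lower. Genes called there were 24 with total counts, 510 with no filter, 3449 by DESeq2, 181 with legacy = FALSE and 8309 with only the groups compared. Under vehicle, only the groups compared gave 2 higher members and 8179 genes. Under CFA, higher members were 1 with no filter and 2 by DESeq2, and genes called were 1232 by DESeq2, 542 with legacy = FALSE and 33 with only the groups compared. For the difference DESeq2 called 4133 genes. The cause of these shifts was not tested.

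Same-numbered libraries did not deviate together (correlations of -0.31 to 0.14), so the numbers are not treated as pairs. With the replicate block the genes called were 0 in iKO CFA against iKO vehicle, 207 in iKO against WT under CFA and 1062 for the difference. Under it the calls of Jund in WT CFA, Jun and Myc in iKO vehicle, and Egr2 and Nr4a1 for the difference did not pass. Scaling by total counts moved the median of all genes to -0.35 in WT CFA, -0.23 in iKO vehicle, 0.15 in iKO against WT under CFA and 0.38 for the difference. The share of calls that were higher was then 14.6% in WT CFA (48.2% with TMM), 21.9% in iKO vehicle (47.0%) and 94.2% for the difference (66.1%).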
